A study of Mus musculus with 5 samples.

Results

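EGR1, EGR2 and EGR3, the nuclear receptors NR4A1, NR4A2 and NR4A3, and NPAS4 are transcription factors made by immediate early genes, and their 7 genes were followed across sorted mouse CD8 T cells. The members were taken as the rows of the deposited expression table whose gene name is one of the 7, a set chosen with earlier results of these data known. All 7 were among the 11564 genes of the table, and all 7 passed the filter on low values. The study sequenced RNA from 3 libraries of CD8 T cells described as PHD2 knockout (genotype PHD2-deltaT) and from 2 libraries of wild-type (WT) CD8 T cells. Egln1 encodes PHD2, an enzyme that uses oxygen to hydroxylate hypoxia-inducible factors and so sends them to degradation. The design compares the 2 genotypes. The labels give no treatment, time, age, strain or deleter line. Stimulation of the cells is not mentioned, nor is the animal behind each library, and the spread that p-values measure here may therefore be technical.

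Engagement of the T cell receptor activates kinase, calcium and calcineurin signalling, and the factors that these relays reach (serum response factor with its ETS partners, CREB, MEF2 and NFAT) switch on immediate early genes without new protein synthesis. EGR proteins are zinc finger factors. EGR1 accompanies activation, while EGR2 and EGR3 are known in mouse T cells for restraining it and for their part in anergy. NR4A proteins are orphan nuclear receptors whose transcripts follow the strength of receptor signalling, and in mouse CD8 T cells they are known for limiting effector function in tumours. NPAS4 is a basic helix-loop-helix PAS factor best known as a calcium-responsive gene of neurons. It pairs with ARNT, the partner that the hypoxia-inducible factors also use.

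Stretches before the RefSeq transcription starts of Nr4a3, which rose, and Nr4a1, which did not pass the test, are shown because the cyclic AMP and calcium response element bound by CREB is a known control of this class of gene. RefSeq (build GRCm38.p6) and GENCODE M21 place these starts differently. The Nr4a1 stretch, chr15:101266596-101266845 on the plus strand, is the 250 bases before the RefSeq start, and it lies inside a longer GENCODE transcript of the gene without touching an exon. Of the 250 bases before the RefSeq start of Nr4a3, GENCODE annotates the last 152 as exon, so the 98 before them are printed, chr4:48045055-48045152 on the plus strand. For Npas4, which fell, GENCODE annotates all 250 as exon, and none is printed. Both sequences run 5′ to 3′, and capitals mark the CREB core element TGACG, or CGTCA where it lies on the other strand.
Nr4a3: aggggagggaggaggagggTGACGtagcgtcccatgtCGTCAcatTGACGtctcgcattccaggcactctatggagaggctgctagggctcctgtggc
Nr4a1: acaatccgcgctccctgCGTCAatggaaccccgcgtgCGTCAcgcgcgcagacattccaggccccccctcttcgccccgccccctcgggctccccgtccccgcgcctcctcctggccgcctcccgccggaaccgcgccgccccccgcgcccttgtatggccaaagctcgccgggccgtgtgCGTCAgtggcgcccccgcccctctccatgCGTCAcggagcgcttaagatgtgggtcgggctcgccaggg

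In RefSeq windows of 250 bases before to 50 after a start, the Npas4 window held 2 core elements, and the Nr4a3 and Nr4a1 windows held 4 each, as did the window of Nr4a2. The printed Nr4a3 stretch holds 3 of its 4. The full palindrome TGACGTCA was in none of these 4 windows. Of 32851 such windows, 20.81% held at least 1 core element, 5.01% at least 2 and 0.231% at least 4. At least 1 full palindrome, which contains 2 overlapping core elements, was in 1.79%. RefSeq gave 5 windows for Egr2, of which 3 overlapping ones held 2 core elements each.

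Searched on both strands, the CArG box of serum response factor was found in 4 of the 5 windows of Egr2 and in 1.63% of all windows. The Egr2 windows that overlap each other hold the same box, so their matches are not separate boxes. The remaining match, in the window chr10:67537316-67537615, is a separate box, because that window overlaps none of the others. The NFAT core GGAAAA was found once, in 1 Egr2 window, and in 23.36% of all windows. The NR4A monomer element AAAGGTCA and the EGR element GCGTGGGCG were in 1.51% and 0.61% of all windows and in no window searched for the members. RefSeq windows were used for 5 of the 7 members, leaving out Egr1 and Egr3. Matches describe letters in these windows, which can hold transcribed bases, and binding was not measured.

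Depth and cell identity were read before the members. Normalized counts summed to between 19593220 and 20253007 in each library. Reads estimated from their steps ran from 10818543 to 15382060. The lowest of these depths was in WT replicate 1. The transcript of the targeted gene, Egln1, was higher in the libraries labelled PHD2-deltaT, at 4922 ± 563 (SD, n = 3) against 2054 ± 180 (SD, n = 2) normalized counts. A gene-level count cannot separate deleted from kept exons, so it checks nothing about the deletion, and PHD2-deltaT stands throughout for the libraries labelled so. Defining T cell markers were abundant, with Cd8a between 15829 and 17936 normalized counts and Cd3e between 5191 and 6586. Cd4 and 5 of 10 B cell markers (Ms4a1 and Pax5 among them) were not analysed here, nor were 7 of 9 myeloid markers, Lyz2 and Csf1r among them. Of the 8 CD8 T cell markers, Cd2 was called higher, and their sum was 79230 to 81242 in PHD2-deltaT against 79081 to 84601. The 3 CD4 T cell markers present summed to 93 to 109 against 65 to 66, with 0 called. The summed level of the 5 B cell markers present was 830 to 900 in PHD2-deltaT and 514 to 563 in WT, and H2-Ab1 and Cd74 of them were called higher. Cd74 made up most of that sum, at 480 to 530 against 319 to 353, while Cd79b, H2-Aa and H2-Eb1 were not called. For natural killer markers, 3 of 4 were analysed, without Ncr1, and their sum was 4760 to 5551 against 3383 to 3682. Most of that sum was Eomes, which CD8 T cells also express, at 4637 to 5471 against 3333 to 3611. Eomes was called higher, while Klrb1c and Klre1 were not called. For the 2 myeloid markers present the sum was 149 to 165 against 124 to 137, with Itgax called higher. Cd68 went the other way, at 61.8 to 82.4 against 80.3 to 97.6 (log2 fold change -0.34), and was not called. Whether these cells or marker changes have a part in the members' values was not tested.

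The 7 genes lie on 7 different chromosomes, and in GENCODE M21 (mm10) none of them shares exon bases with another gene. The EGR genes are Egr1 (ENSMUSG00000038418; chromosome 18, 34859823 to 34864984, plus strand), Egr2 (ENSMUSG00000037868; chromosome 10, 67535475 to 67542188, plus strand) and Egr3 (ENSMUSG00000033730; chromosome 14, 70077203 to 70082614, plus strand). The nuclear receptor genes are Nr4a1 (ENSMUSG00000023034; chromosome 15, 101254269 to 101274795, plus strand), Nr4a2 (ENSMUSG00000026826; chromosome 2, 57106830 to 57124003, minus strand) and Nr4a3 (ENSMUSG00000028341; chromosome 4, 48045153 to 48086447, plus strand). Npas4 (ENSMUSG00000045903) lies on chromosome 19, 4984355 to 4990316, minus strand.

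Per kilobase of exon, Nr4a1 was the most abundant member and Npas4 the least. Nr4a1 reached 1707 to 2024 normalized counts per kb in PHD2-deltaT and 1718 to 1850 in WT, above every other member in all 5 libraries. By mean level per kb, Nr4a1 stood at or above 94.5% of the genes in the table that have an annotated length.

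Egr1, Egr2 and Nr4a3 formed a middle level. Egr1 ran from 776 to 1001 normalized counts per kb over the 5 libraries and Egr2 from 777 to 888. Their ranges overlapped within both genotypes. Nr4a3 stood at 703 and 736 in WT, below the 819 and 872 of Egr2, and at 882 to 962 in PHD2-deltaT, where it was above Egr2 in 3 of 3 libraries and their ranges overlapped.

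Nr4a2 and Egr3 came next, at 448 to 542 and 394 to 517 normalized counts per kb over all libraries. Their ranges overlapped in PHD2-deltaT and lay apart in WT. Npas4 followed at 78.4 and 98.9 per kb in WT and 39.4 to 56.2 in PHD2-deltaT, at or above 33.1% of genes with a length.

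**Figure D1:**
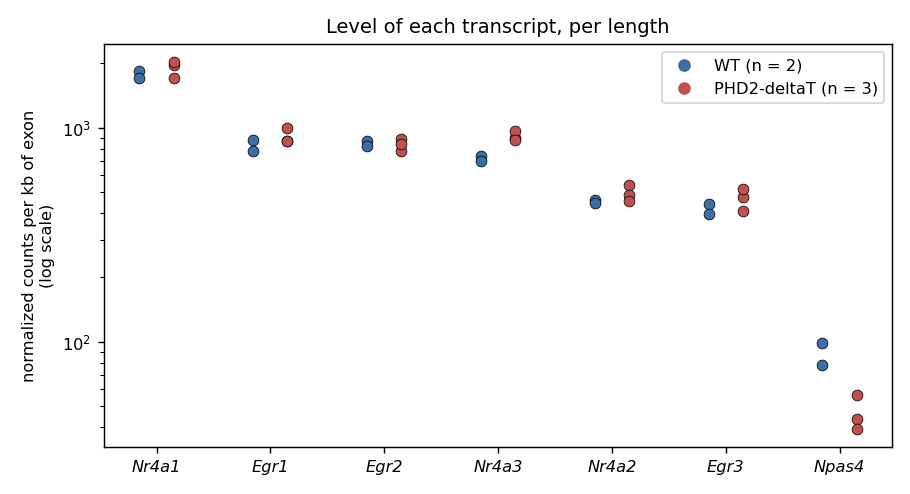
Normalized counts per kb of exon (log scale) of the 7 members, with 1 point per library, WT (n = 2) in blue and PHD2-deltaT (n = 3) in red. Nr4a1 lies highest in every library, and Npas4 lies lowest with its PHD2-deltaT points below its WT points.

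The genotype comparison asked how these transcripts differ between libraries labelled PHD2-deltaT and WT. Nr4a3 rose 1.27-fold and Npas4 fell to 0.522 of its WT level, while Egr1, Egr2, Egr3, Nr4a1 and Nr4a2 did not pass the test. So 1 of 7 members was called higher and 1 of 7 lower at an adjusted p under 0.05 (limma-trend on log2(value + 1), adjusted over 11534 genes). Of all genes tested, 2.97% were called higher and 1.02% lower. Values of the genotypes did not overlap for the same 2 of 7 members, against 30.5% of all genes, a share near that background. In bulk RNA, fewer cells that express a gene and less RNA per expressing cell cannot be told apart.

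Npas4 had 232, 180 and 163 normalized counts in the PHD2-deltaT libraries, and the WT libraries had 324 and 409. Every PHD2-deltaT library was below both WT libraries. Means of 192 ± 36.2 (SD, n = 3) in PHD2-deltaT and 367 ± 60.1 (SD, n = 2) in WT gave a log2 difference of -0.94 ± 0.16 (SE), with an adjusted p of 0.00163 in limma-trend.

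Of all genes tested, 1.95% had a change larger in size than that of Npas4. Its 95% interval ran from 0.414 to 0.658 of the WT level. The residual spread of Npas4 was also wide, with an SD of 0.255 on the log2 scale that 15.6% of genes exceeded. The inferred reads behind the values were few, at 182, 132 and 105 in the PHD2-deltaT libraries against 174 and 304. The closest pair of libraries was PHD2-deltaT replicate 1, with an exact Poisson 95% counting interval of 200 to 269 normalized counts, and WT replicate 1, with 278 to 376. These intervals cover counting error only and did not overlap.

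The call of Npas4 was lost when WT replicate 2 was left out (log2 fold change -0.77, adjusted p = 0.0549) and in limma without the mean-variance trend (adjusted p = 0.136). Without each of the other 4 libraries Npas4 was still called, with changes between -0.83 and -1.11. In the authors' deposited table Npas4 had a log2 fold change of 0.63 in the direction WT over PHD2-deltaT and an FDR of 2.55e-05. That change was smaller in size than the -0.94 fitted here for PHD2-deltaT over WT, and the reason was not tested. Npas4 was 1 of the 19 genes higher in WT that the authors selected, and their selection of 132 genes higher in PHD2-deltaT held no member.

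Nr4a3 had 5360, 5757 and 5277 normalized counts in the PHD2-deltaT libraries, and the WT libraries had 4408 and 4211. The lowest PHD2-deltaT library was above the highest WT library. Means of 5465 ± 256.5 (SD, n = 3) and 4310 ± 140 (SD, n = 2) gave a log2 difference of 0.34 ± 0.07 (SE), with an adjusted p of 0.00867 in limma-trend.

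Of all genes tested, 13.3% had a change larger in size than that of Nr4a3. Its residual SD of 0.061 on the log2 scale was below that of 81.5% of genes. Its 95% interval was 1.14-fold to 1.41-fold, and 2371 to 4219 inferred reads lay behind each value. Leaving out WT replicate 2 ended the call (log2 fold change 0.31, adjusted p = 0.145), as did limma without the trend (adjusted p = 0.173). In the authors' deposited table the log2 fold change of Nr4a3, WT over PHD2-deltaT, was -0.32 with an FDR of 0.000445. Its size was under the smallest among the genes that the authors selected as higher in PHD2-deltaT (0.502).

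The other NR4A genes did not pass the test. Nr4a1, which encodes NUR77, had 6884, 7101 and 5989 normalized counts in the PHD2-deltaT libraries, and the WT libraries had 6491 and 6029, and the genotypes overlapped. Its log2 fold change was 0.09 ± 0.08 (SE), with a 95% interval of 0.943-fold to 1.19-fold (limma-trend, adjusted p = 0.722).

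Nr4a2, which encodes NURR1, had 2202, 1977 and 1842 normalized counts in the PHD2-deltaT libraries, and the WT libraries had 1863 and 1817. PHD2-deltaT replicate 3 fell between the WT libraries, which were close to each other, while the other PHD2-deltaT libraries were above them. The log2 fold change was 0.12 ± 0.08 (SE), the 95% interval 0.964-fold to 1.23-fold and the adjusted p 0.570 (limma-trend).

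The libraries of the genotypes overlapped for every EGR gene. Egr1 had 3875, 4488 and 3910 normalized counts in the PHD2-deltaT libraries, and the WT libraries had 3918 and 3482, so WT replicate 1 lay above 2 of the 3 PHD2-deltaT libraries. The log2 fold change of Egr1 was 0.14 ± 0.08 (SE), with a 95% interval of 0.980-fold to 1.25-fold (limma-trend, adjusted p = 0.452).

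Egr2 had 2639, 3019 and 2870 normalized counts in the PHD2-deltaT libraries, and the WT libraries had 2964 and 2783. The WT values lay inside the PHD2-deltaT range. Its log2 fold change was -0.02 ± 0.08 (SE), its 95% interval 0.883-fold to 1.11-fold and its adjusted p 0.956 (limma-trend). The sign of this change turned when PHD2-deltaT replicate 1 (0.04) or WT replicate 1 (0.03) was left out.

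Egr3 had 2103, 2280 and 1808 normalized counts in the PHD2-deltaT libraries, and the WT libraries had 1951 and 1735. PHD2-deltaT replicate 3 was below WT replicate 1 and the others were above both WT libraries. The log2 fold change was 0.16 ± 0.09 (SE), with a 95% interval of 0.973-fold to 1.28-fold (limma-trend, adjusted p = 0.478). In the authors' deposited table the FDR of these 5 genes ran from 0.610 to 0.987, and 2 of 7 members had an FDR under 0.05 against 3.95% of the 11339 genes with an FDR.

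**Figure D2:**
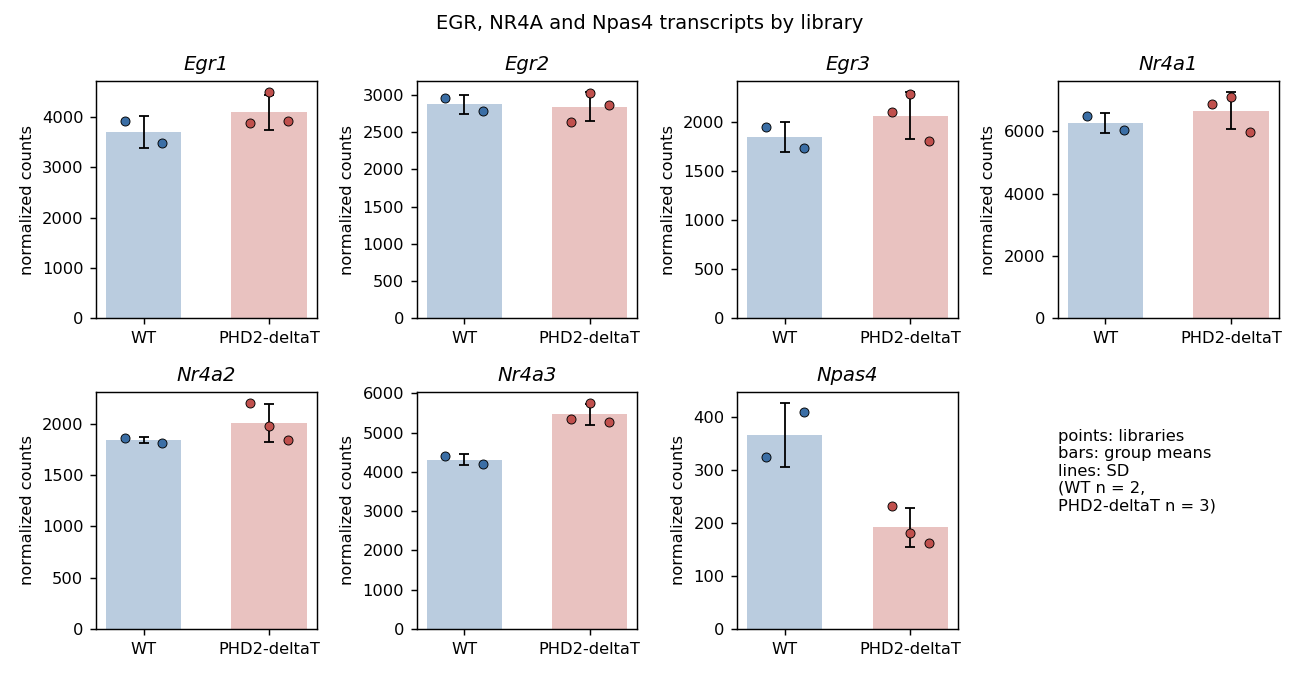
Normalized counts of each member, with 1 point per library, bars at the group means from 0 and lines for the SD (WT n = 2, PHD2-deltaT n = 3). The points of the genotypes lie apart for Nr4a3 (PHD2-deltaT higher) and Npas4 (PHD2-deltaT lower) and overlap for the other 5 genes.

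**Figure D3:**
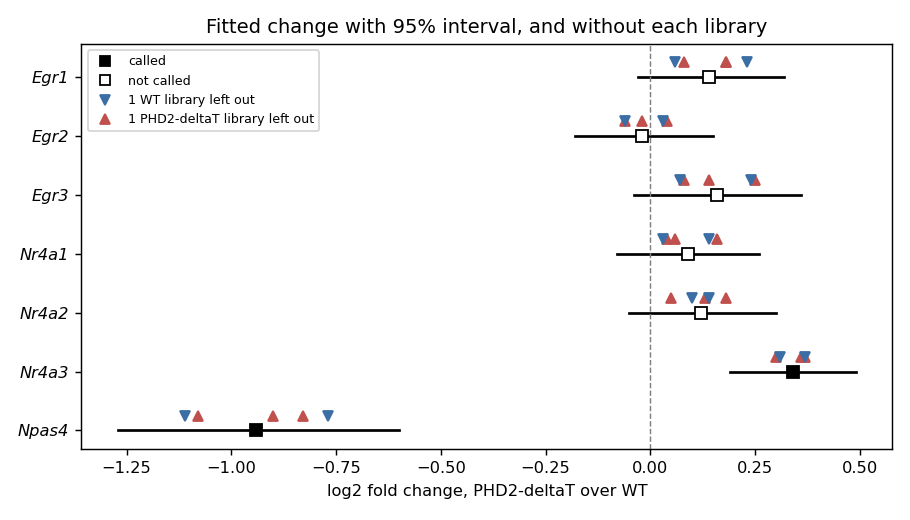
Log2 fold change of each member (squares, filled where called) with its 95% interval (lines), and the same value with 1 library left out (triangles, blue for WT and red for PHD2-deltaT). Npas4 stays between -0.77 and -1.11 and Nr4a3 between 0.30 and 0.37, and the Egr2 values fall on both sides of 0.

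Libraries of 1 genotype also differed among themselves. PHD2-deltaT replicate 2 was the highest of its group for 5 members (Egr1, Egr2, Egr3, Nr4a1 and Nr4a3) and replicate 3 the lowest for 5. WT replicate 1 exceeded WT replicate 2 for 6 members, Npas4 being the exception. As a description over the 5 libraries, the root mean square difference between centred log2 profiles was least for Egr3 and Nr4a1 (0.051), then Nr4a1 and Nr4a2 (0.071) and Egr1 and Egr3 (0.074). The distance of Npas4 from each of the other members was 0.519 to 0.663, and the others differed from each other by at most 0.182. These profiles share libraries and depth.

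**Figure D4:**
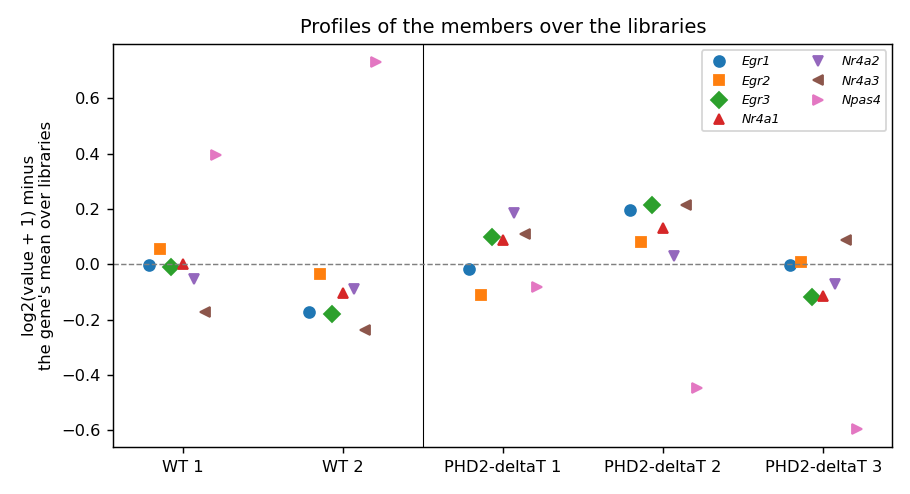
Log2(value + 1) of each member minus its mean over the 5 libraries, for each library. Npas4 lies above 0 in the 2 WT libraries and below 0 in the 3 PHD2-deltaT libraries, and the other 6 members stay between -0.238 and 0.214.

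Ratios within a library compared members with each other. The log2 ratio of Nr4a3 to Nr4a1 was -0.36, -0.30 and -0.18 in the PHD2-deltaT libraries against -0.56 and -0.52, so Nr4a3 was higher relative to Nr4a1 in every PHD2-deltaT library, by 0.26 on average. The log2 ratio of Npas4 to Nr4a1 was -4.88, -5.29 and -5.19 against -4.32 and -3.88, a difference of -1.02 with no overlap. The ratio of Egr2 to Egr1 was also lower in each PHD2-deltaT library, at -0.55, -0.57 and -0.45 against -0.40 and -0.32, a difference of -0.16. For these 3 the exact permutation p was 0.2 (two-sided, adjusted p = 0.333 over 5 ratios), the smallest that 3 against 2 libraries allow. For Egr3 to Egr1 and Nr4a2 to Nr4a1 the differences were 0.01 and 0.04, each with an exact permutation p of 0.8 (adjusted p = 0.8).

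Named by the distance of centred profiles among 9485 other genes with a mean of at least 50 (predicted genes left out), the genes most like the EGR members were Ass1, an arginine synthesis enzyme, for Egr1 (0.008), Dtymk, a thymidylate kinase, for Egr2 (0.005) and the small GTPase gene Gem for Egr3 (0.018). Second were Pttg1 (0.021), Tpt1 (0.008), which has processed pseudogenes, and Txnrd3 (0.038). For Nr4a1 they were Lins1 (0.013) and Crem (0.020), a CREB-family gene. For Nr4a2 they were Aldh7a1 (0.020) and the interferon-induced GTPase Irgm2 (0.021), and for Nr4a3 Cryz (0.020) and Mob3a (0.024). None of these was called except Mob3a (log2 fold change 0.32, limma-trend adjusted p = 0.0342). Mob3a was picked for its likeness to Nr4a3, so its direction follows from that choice.

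No gene followed Npas4 as closely. Nearest were Itm2a, a membrane protein gene, at 0.155 and Spry2, an inhibitor of growth factor receptor signalling, at 0.157, beside a range of 1.32 in Npas4 itself. Itm2a had 5919, 5297 and 5412 normalized counts in the PHD2-deltaT libraries, and the WT libraries had 8926 and 10002. Spry2 had 200.01, 184 and 180 against 340 and 345. Both were called lower, by -0.77 and -0.86 on the log2 scale (limma-trend, adjusted p = 8.78e-06 and 0.000409). They were picked for profiles like that of Npas4 in these same libraries, so their direction follows from that choice.

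Of 24 signalling relays and factors known to lie upstream of the members, all tested, 0 were called higher and 1 lower, with a median log2 fold change of -0.05 beside -0.01 over all genes tested. Elk3, an ETS partner of serum response factor, was the one that fell, with 1572, 1464 and 1669 normalized counts against 2195 and 2047 (log2 fold change -0.44, limma-trend adjusted p = 0.00329). Its call did not hold without WT replicate 1 (adjusted p = 0.0621) or without the trend (0.142). Srf, Creb1, the NFAT genes and the calcineurin subunits did not pass the test.

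Partners and corepressors were read for 7 of 8 listed genes, Arnt2 not analysed here. Rxra, the retinoid receptor that dimerizes with NR4A1 and NR4A2, was called higher, with 427, 424 and 398 normalized counts against 305 and 319 (log2 fold change 0.42, adjusted p = 0.0363 in limma-trend). That call was lost in 4 of the 5 fits without 1 library and without the trend (adjusted p = 0.1075). The EGR corepressor genes Nab1 (0.03) and Nab2 (0.15), and Arnt (0.06), which encodes a partner of NPAS4, did not pass. The list's median log2 fold change was 0.06.

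Genes linked to EGR2 and EGR3 in mouse T cells showed 2 higher and 1 lower of 14 tested (15 listed, Rnf128 not analysed here), and the list's median log2 fold change was 0.10. The semaphorin and VEGF co-receptor Nrp1 went from 1404 and 1610 normalized counts in WT to 502, 478 and 486 in PHD2-deltaT (log2 fold change -1.62, adjusted p = 1.66e-08 in limma-trend). The cytokine signalling inhibitor Socs1 (0.50) and the stress-responsive Ndrg1 (0.52), known also as hypoxia-inducible, were higher. Neither was called with WT replicate 2 left out (adjusted p = 0.151 for Socs1, 0.0596 for Ndrg1) or in the fit with no trend (0.269 and 0.278). Ndrg1 was also lost without WT replicate 1 (adjusted p = 0.126). The anergy-related ubiquitin ligase gene Cblb (-0.06), the diacylglycerol kinase genes Dgka (0.10) and Dgkz (0.09), and Tnfrsf9 (0.04), which encodes 4-1BB and also stands on the early activation list, did not pass.

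Of 9 tested genes linked to NR4A factors in mouse T cells (10 listed, Tox2 not analysed here), 1 was called higher and 0 lower, and the list's median log2 fold change was -0.03. The inhibitory receptor gene Havcr2, which encodes TIM-3, had 117, 65.9 and 74.9 normalized counts against 41.3 and 35.7 (log2 fold change 1.10, limma-trend adjusted p = 0.0209). Its call did not hold without WT replicate 1 (adjusted p = 0.0524), WT replicate 2 (0.153) or PHD2-deltaT replicate 1 (0.0964), nor without the trend (0.180). Pdcd1, which encodes PD-1, had 2027, 2197 and 2162 normalized counts against 2683 and 2393 and did not pass the test (log2 fold change -0.25, adjusted p = 0.0860). Tox (-0.06), an exhaustion-associated factor gene, did not pass either.

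Of 27 other immediate early genes tested, 10 were called higher and 0 lower, with a median log2 fold change of 0.24 beside 0.12 for the members and -0.01 for all genes. Whether the list differs from the members was not tested. Csrnp1, a nuclear factor gene, had 2526, 2693 and 2621 normalized counts against 1769 and 1724 (log2 fold change 0.58). The stress and survival gene Ier3 (1.12), the small MAF factor gene Maff (0.86) and the stress factor gene Atf3 (0.70) also rose (adjusted p from 8.45e-05 to 0.00137 in limma-trend over these 4). Junb, Jun, Arc, Klf6, Klf10 and Nfkbia were called as well. Fos, the partner of Jun in AP-1, had a log2 fold change of 0.00 (adjusted p = 0.9996). Without WT replicate 2 the count of called genes was 5, and without the trend it was 2.

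Of 19 early activation genes, 7 were called higher and 1 lower, and the list's median was 0.22 on the log2 scale. Ifng, which encodes interferon gamma, had 9117, 11011 and 10059 normalized counts against 4479 and 4005 (log2 fold change 1.24, limma-trend adjusted p = 1.11e-07). The stress signalling gene Gadd45b (0.71), the IκB family gene Nfkbid (0.49) and Cd83 (0.56), an activation surface molecule, rose, as did Tnfrsf18, Ccl3 and Tnf, and Cd200 fell (-0.37). Cd69 (0.15), another early surface marker, and Cd44 (0.08) did not pass the test. Without WT replicate 2, 4 were called higher and 0 lower, without WT replicate 1 the lower call was also lost, and without the trend 1 was higher and 0 lower.

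Heat shock genes, which respond to handling, gave 0 calls among 9 tested (10 listed, Hspa1a not analysed here), and the list's median log2 fold change was -0.01. At an unadjusted p under 0.05 in limma-trend, 1 of them passed, Dnajb1 (0.18, adjusted p = 0.237). Of all 11534 genes tested, 1731 passed at that level. Hspa1b (0.85, adjusted p = 0.348) rested on 8.05 to 23.5 normalized counts.

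**Figure D5:**
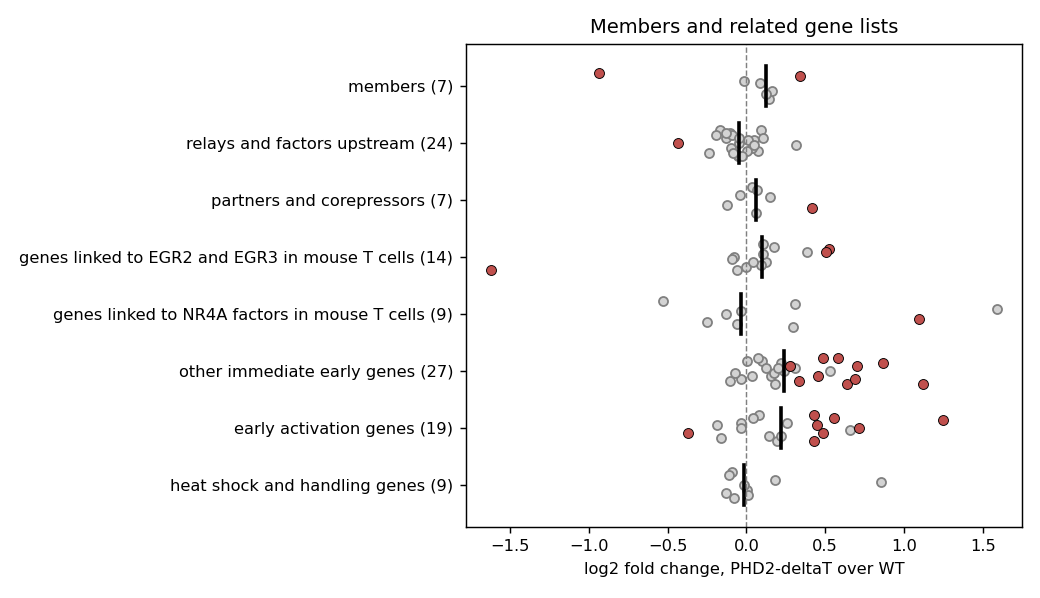
Log2 fold change of every tested gene in each list (points, red where called and grey otherwise) with the list's median (bar). The members lie between -0.94 (Npas4) and 0.34 (Nr4a3), and the other immediate early genes and early activation genes have medians of 0.24 and 0.22.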

How the data were processed

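RNA from sorted mouse CD8 T cells was sequenced in 3 PHD2-deltaT and 2 WT libraries (Ovation SoLo, paired-end, per the labels' protocols). The submitters' processing notes name Trimmomatic 0.36, STAR 2.5.3, HTSeq 0.9.1 and mm10. The scaling, the comparison tool and the use of strand are not stated in those notes or in the labels. The deposited table holds the authors' normalized count signal for 11564 genes, with the authors' log2 fold change and adjusted p-value (FDR, blank for 225 genes). Its values are multiples of 1 step per library, but these whole numbers leave the gaps of reads multiplied by a constant of 1.30 to 1.85 and rounded up, so no count test was run. Dividing by that constant inferred 10818543 to 15382060 reads per library. The constant explained 99.4% to 99.87% of the values checked in a library, against 54.1% to 77.0% by chance. The check left out the highest values, those of Nr4a1, Nr4a3 and Egr1 among them.

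Gene names followed the deposited IDs, with 17 names that a spreadsheet had turned into dates restored, and 11538 IDs matched GENCODE M21. limma 3.58.1 (R 4.3.3) was fitted to log2(value + 1) with a mean-variance trend, genotype as the term and genes of at least 10 in at least 2 libraries (11534 genes). P-values were two-sided, adjusted by Benjamini-Hochberg and called under 0.05. Residual degrees of freedom were 3, and 12.8 came from the prior. Ratios used the exact permutation test (scipy 1.17.1).

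The members and lists were chosen with earlier results of these data known. Named genes are the members, up to 4 called genes per list with the smallest p (or the 2 smallest where none was called), and the 2 genes most like each member. Other genes named from lists were chosen after their values were seen. Alternatives covered the pseudocount, the filter, TMM scaling, quantile normalization, the trend, robust fitting, array weights and leaving out each library.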

Additional observations from a re-analysis of the deposited data

How the results depend on the processing

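Across 14 alternatives Nr4a3 stayed between 0.30 and 0.37 and Npas4 between -1.11 and -0.77 on the log2 scale. Both were called in 12, and lost without the mean-variance trend and without WT replicate 2. The cause was not tested. Egr1, Egr3, Nr4a1 and Nr4a2 were called in none and kept their sign. Egr2 ran from -0.06 to 0.04 and turned to 0.04 without PHD2-deltaT replicate 1 and 0.03 without WT replicate 1. Without the trend, 76 genes were called higher and 20 lower. Of the members 0 were then called higher and 0 lower. In the lists that fit called 0 upstream genes lower, 0 partners, 0 EGR-linked and 0 NR4A-linked genes higher, 2 other immediate early genes higher, and 1 early activation gene higher and 0 lower. Leaving out 1 library gave 209 to 362 genes called higher and 35 to 161 lower, the lowest without WT replicate 2, and 0 to 1 members in each direction. In the same fits the counts were 0 to 1 upstream genes lower, 0 to 1 partners higher, 0 to 3 EGR-linked and 0 to 1 NR4A-linked genes higher, 5 to 11 other immediate early genes higher, and 4 to 9 early activation genes higher and 0 to 1 lower. The log2 ratio difference of Egr3 to Egr1 ran from -0.04 to 0.08 and that of Nr4a2 to Nr4a1 from -0.01 to 0.09, both negative without PHD2-deltaT replicate 1. No scaling moved the median of all genes beyond -0.014. With 2 WT libraries, a fit without 1 of them assumes that the lone WT library varies like the PHD2-deltaT libraries. Npas4, with 105 to 304 inferred reads per library, is the member that depth limits most.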
